A study of Rattus norvegicus with 16 samples.

Results

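Peroxide-removing enzymes and the disulfide reductases that serve them were described through 10 genes picked by name: the peroxiredoxins Prdx1 to Prdx6, the thioredoxin reductases Txnrd1 and Txnrd2, the glutaredoxin Glrx and the mitochondrial thioredoxin Txn2. These genes, like the gene lists below, were chosen with earlier results of these data known. Counts set beside shares of all rows therefore describe the genes and are no test of an excess. For each gene, the brightest row carrying its symbol alone in the array annotation was taken. All 10 of the 10 had such a row, and none had more than 1, among 13215 genes with a row of their own. RNA from the livers of 16 male Sprague Dawley rats, 4 in each of 4 groups, was hybridised to Affymetrix rat exon arrays, and every animal had its own array. The fed group kept its food, the P2 group was fasted into phase 2 of a fast, the P3 group into phase 3, and the P3r2 group went through phase 3 and had food again for 2 days. The labels give no genetic change in any group, and the sources used here state neither ages nor how long the fasts lasted. Each sample is a piece of frozen whole liver, so in every result below fewer cells of a type and less RNA per cell cannot be told apart.

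Peroxiredoxins are abundant enzymes that reduce hydrogen peroxide and organic peroxides with a reactive cysteine. In most of them the oxidised cysteine is restored by thioredoxin, which thioredoxin reductase, a selenium-containing flavoenzyme, keeps reduced at the cost of NADPH. Each compartment has its own set: Prdx1, Prdx2, Prdx6 and Txnrd1 act mainly in the cytosol, Prdx3, Txn2 and Txnrd2 in mitochondria, Prdx4 in the endoplasmic reticulum, and Prdx5 in mitochondria, peroxisomes and the cytosol. Glrx is a cytosolic enzyme that removes glutathione from proteins, using reduced glutathione. In a long fast, phase 2 is the period of fat burning with protein spared, and phase 3 is the period in which body protein is used up faster.

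Values are log2 signals as deposited, and a difference of 1 is a 2-fold difference. Array medians ran from 4.34 to 4.46. The spread of values, as a standard deviation over rows, was smallest on fed 2 (2.12), P2 4 (2.14) and P3 3 (2.18), and these 3 arrays, called narrow below, also had the lowest weights in limma's array weighting (0.39, 0.41 and 0.38). They stay in all values unless stated. Hepatocyte markers were bright on every array, with Alb (albumin) at 13.0 to 13.5. The summed level of the 6 measured of 8 hepatocyte markers, on the log2 scale, was 15.22 to 15.45 in fed, 15.46 to 15.51 in P2, 15.29 to 15.37 in P3 and 15.38 to 15.45 in P3r2. In P3 against P2, 1 of the 6 was called higher and 2 lower. Stellate cell markers moved most among the other cell types. Of 5 measured of 7, 1 was called higher and 3 lower in P2 against fed, and 1 higher and 2 lower in P3 against fed. Their summed level, in which bright rows weigh most, was 9.39 to 10.1 in fed, 8.89 to 9.35 in P2, 9.88 to 10.9 in P3 and 8.95 to 9.67 in P3r2. From fed to P3 the mean of Dcn went from 5.90 to 9.70, while Lrat went from 8.25 to 6.97 and Pdgfrb from 7.84 to 6.62. In that comparison 2 of the 5 changes were positive and 3 negative. Erythroid markers, which bear on red cell peroxiredoxins, were measured for 3 of 10, and none was called in any of the 6 comparisons (summed level 6.27 to 6.95). The part of these cell types in the results was not tested.

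Promoters are shown for Prdx1, Prdx4 and Txnrd1, whose changes between P2 and P3 were larger than those of the other 7 genes. The sequences are from RefSeq (build GRCr8), run 5′ to 3′ on the gene's strand, and hold 250 bases before and 50 after the annotated start. RefSeq sequences were matched by gene identifier for 9 of the 10 genes, all but Prdx6, and Txnrd1 has 2 starts, of which the second is shown. Capitals mark the core of the antioxidant response element, TGACNNNGC, read on either strand, and the E-box CACGTG. Here all matches of the first motif lie on the opposite strand, so the capitals show its reverse complement. The Prdx1 window is chr5:135383656-135383955 (+), the Prdx4 window is chrX:43878483-43878782 (+) and the Txnrd1 window is chr7:22755855-22756154 (-).
Prdx1: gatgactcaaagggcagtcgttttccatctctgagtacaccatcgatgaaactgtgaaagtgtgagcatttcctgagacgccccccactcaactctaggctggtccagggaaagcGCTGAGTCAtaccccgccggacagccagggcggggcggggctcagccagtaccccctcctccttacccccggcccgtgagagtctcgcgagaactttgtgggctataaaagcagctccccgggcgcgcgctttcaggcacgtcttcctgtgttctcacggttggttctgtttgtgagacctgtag
Prdx4: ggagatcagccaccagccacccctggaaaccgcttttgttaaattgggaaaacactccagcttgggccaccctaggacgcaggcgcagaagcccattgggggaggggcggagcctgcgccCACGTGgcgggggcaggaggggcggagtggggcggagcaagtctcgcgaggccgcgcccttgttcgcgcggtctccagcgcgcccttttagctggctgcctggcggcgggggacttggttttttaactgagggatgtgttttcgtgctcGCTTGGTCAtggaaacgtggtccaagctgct
Txnrd1: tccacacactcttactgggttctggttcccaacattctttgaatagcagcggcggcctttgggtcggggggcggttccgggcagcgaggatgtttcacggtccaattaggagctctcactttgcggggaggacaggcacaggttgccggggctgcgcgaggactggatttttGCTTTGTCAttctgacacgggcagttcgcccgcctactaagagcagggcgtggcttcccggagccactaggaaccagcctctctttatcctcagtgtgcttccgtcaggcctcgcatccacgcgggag
The antioxidant response element core was found in the windows of 4 of the 9 genes, with Prdx5 as the fourth. These are 4 of 10 windows, since the window of the first Txnrd1 start has no match, and 12.1% of the 33469 promoters of this length have one. The match covers bases 116 to 124 in Prdx1, 270 to 278 in Prdx4, 250 to 258 in Prdx5 and 173 to 181 in Txnrd1. The E-box lies at bases 121 to 126 of Prdx4 and occurs in 6.42% of promoters. The core of the nuclear respiratory factor 1 motif, held by 4.25% of promoters on either strand, was found in none of the 9. A match describes the letters of the window and shows no binding.

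Most of the 10 genes were higher in P2 livers than in fed ones. In limma's linear model over all 16 arrays, with Benjamini-Hochberg adjustment over 18885 rows and a threshold of 0.05, Prdx2, Prdx3, Prdx4, Prdx5, Glrx and Txn2 were called higher in P2 than in fed, and none was called lower. Of all rows, 12.7% were called, 6.13% higher and 6.58% lower. Bright and short genes had larger shares called higher. A fit of the 9443 rows at or above the median signal called 1096 higher and 1520 lower. Among such rows of genes up to 7.45 kb long, as Prdx2 and Prdx5 are, 19.6% were called higher and 4.31% lower in the main fit. In the next length group, with Prdx1, Prdx3, Prdx6, Glrx and Txn2, these shares were 11.8% and 8.39%. The median change was 0.81 over the 10 genes and 0.05 over all rows. In 8 of the 10 the 4 P2 values did not overlap the 4 fed values, against 19.2% of all rows. Without the 3 narrow arrays 6 were called higher and none lower, with Prdx6 (0.49, adjusted p = 0.024) in place of Txn2 (0.37, 0.052). That fit called 2323 of the 18885 rows, 845 higher and 1478 lower. With single arrays left out, 5 to 7 of the 10 genes were called higher and at most 1 lower.

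In P3 against P2 livers, Prdx1, Prdx2 and Prdx4 were called lower and Txnrd1 was called higher. Of all rows 22.0% were called, 13.5% higher and 8.53% lower. The median change was -0.43 over the 10 genes and -0.03 over all rows, 9 of the 10 were negative, and in 6 of the 10 the groups did not overlap (21.9% of rows). Against fed, Prdx5 and Txnrd1 were called higher in P3 and Prdx4 lower, with 19.3% of rows called (11.3% higher, 8.06% lower), a median of 0.26 against 0.03, and 3 genes without overlap (19.6% of rows). Without the 3 narrow arrays, P3 against fed had no gene called higher and 2 called lower, Prdx4 and Prdx1. That fit called 3781 of the 18885 rows, 2035 higher and 1746 lower.

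After re-feeding, Prdx1 and Prdx4 were called higher than in P3 and no gene was called lower, with 18.4% of rows called (10.5% higher, 7.93% lower). The median change was 0.30 over the 10 genes and -0.03 over all rows, and 6 of the 10 had no overlap (22.8% of rows). Without the 3 narrow arrays, 5 genes were called higher and 1 lower, and 3984 of the 18885 rows were called (2142 higher, 1842 lower). In that fit Prdx2 (0.48 ± 0.13, SE, adjusted p = 0.021), Prdx3 (0.36 ± 0.11, SE, 0.035) and Prdx6 (0.59 ± 0.12, SE, 0.0025) joined the rise, and Prdx5 (-0.43 ± 0.13, SE, 0.036) was lower. Re-fed livers against fed ones gave 1 call, Prdx3, with 2.72% of rows called (2.21% higher, 0.514% lower). All 10 changes were positive there, with a median of 0.44 against 0.02 over all rows, and 3 genes had no overlap (12.5% of rows). Against P2, re-fed livers were called higher in Txnrd1 and lower in Prdx4 and Prdx5, with 15.6% of rows called (11.3% higher, 4.36% lower), a median of -0.26 against -0.03, and 5 genes without overlap (23.9% of rows). Comparisons that name the same group share its 4 arrays.

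**Figure D1:**
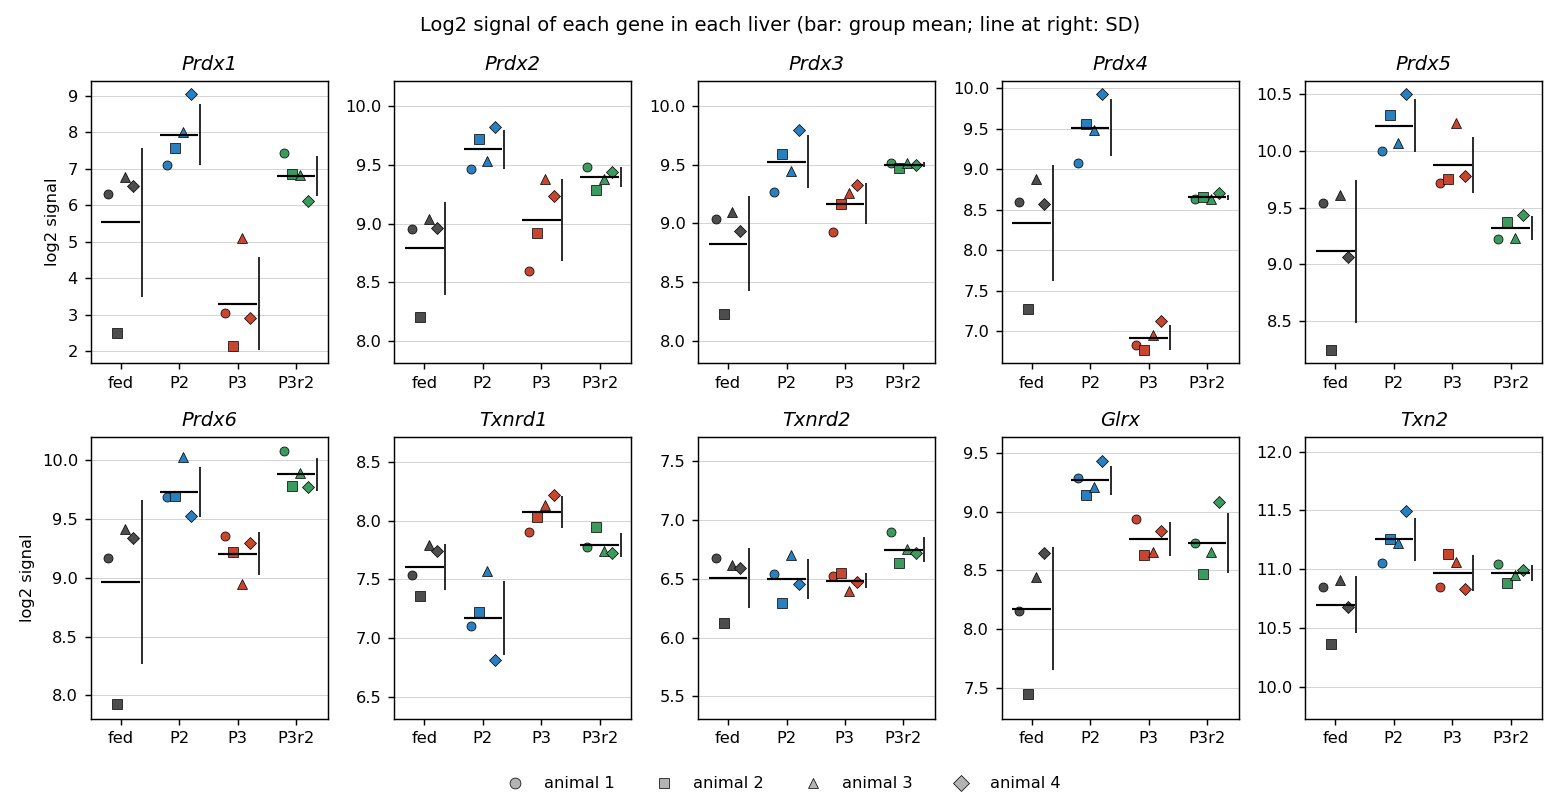
Log2 signal of each of the 10 genes (y axis) in each liver, by group (x axis), with 1 point per animal, a bar at the group mean and a line at its right for ± 1 SD. Prdx4 is lowest in all 4 P3 livers (6.77 to 7.12), Prdx1 scatters widely within fed and P3, and fed 2 is the lowest fed liver for every gene.

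**Figure D2:**
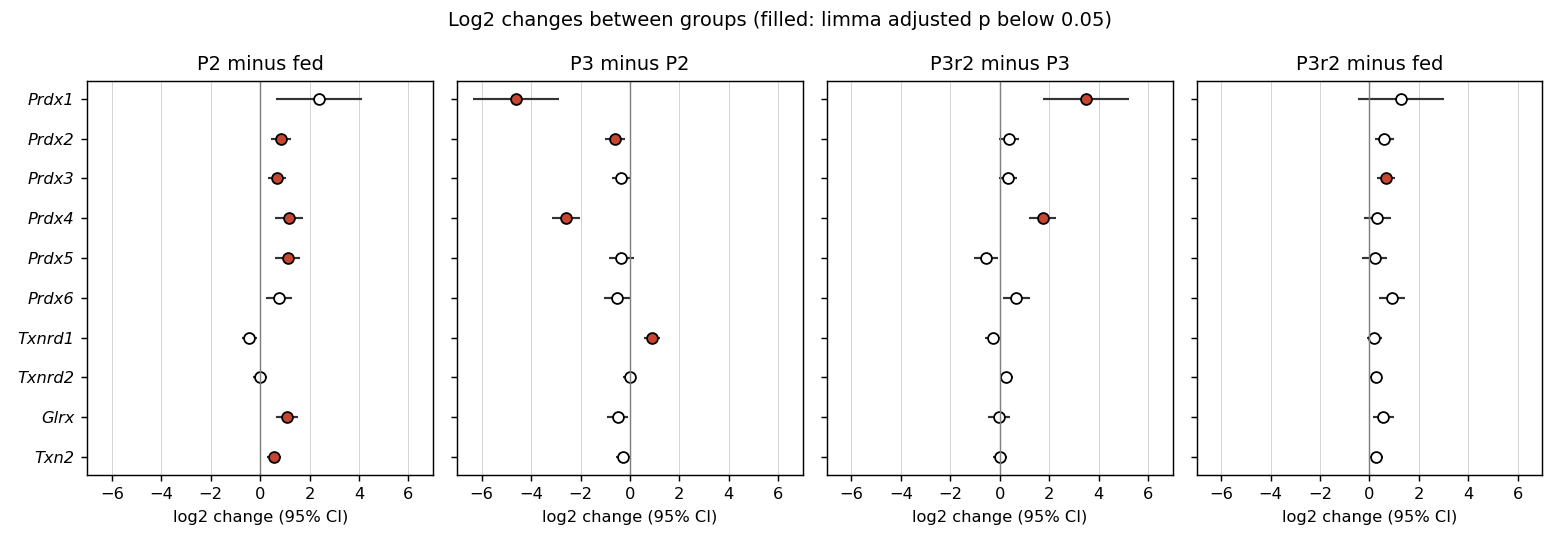
Log2 change of each gene (x axis, with 95% confidence interval) in 4 of the 6 comparisons, with filled points where limma's adjusted p was below 0.05. Filled points lie to the right in P2 minus fed, mostly to the left in P3 minus P2, and again to the right for Prdx1 and Prdx4 in P3r2 minus P3.

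Prdx4, the peroxiredoxin of the endoplasmic reticulum that passes oxidising power on to protein disulfide isomerases, had called changes in 5 of the 6 comparisons. Its log2 signal was 8.60, 7.28, 8.88 and 8.57 in fed 1 to 4, 9.07, 9.56, 9.48 and 9.93 in P2, 6.84, 6.77, 6.95 and 7.12 in P3, and 8.64, 8.65, 8.63 and 8.70 in P3r2. Every P3 liver lay below every other liver, and every P2 liver lay above all the rest. Mean and SD (n = 4 each) were 8.33 ± 0.72 for fed, 9.51 ± 0.35 for P2, 6.92 ± 0.15 for P3 and 8.65 ± 0.03 for P3r2 livers.

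The fall of Prdx4 from P2 to P3 was 2.59 log2 units, or 6.02-fold (SE 0.26, adjusted p = 7.1e-06). In P3 it stood 2.66-fold below fed (log2 change -1.41 ± 0.26, SE, adjusted p = 0.001), and it was 3.33-fold higher after re-feeding than in P3 (1.74 ± 0.26, SE, adjusted p = 0.00019). These 3 calls held under every alternative run at the threshold of 0.05. The rise from fed to P2 was 1.18 ± 0.26 (SE, adjusted p = 0.01). It was 0.69 (adjusted p = 0.0095) without the narrow arrays, and in a fit of the 2 groups alone its adjusted p was 0.061. Re-fed livers lay 0.85 log2 units below P2 (SE 0.26, adjusted p = 0.04), and this call was lost with any of P2 2, P2 3, P2 4 or the 4 re-fed arrays left out (changes from -0.71 to -0.87, adjusted p up to 0.12). In the order P3, fed, P3r2, P2, the step from P3 to fed and that from P3r2 to P2 were called, and fed and P3r2 did not differ beyond their spread (0.32, interval -0.24 to 0.89).

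Prdx1, the cytosolic peroxiredoxin also known as a chaperone at high peroxide levels, spanned more than any other of the 10 genes, 4.62 log2 units between its lowest and highest group means. The livers had log2 signals of 6.32, 2.49, 6.76 and 6.54 in fed 1 to 4, 7.09, 7.56, 8.0 and 9.05 in P2, 3.05, 2.14, 5.11 and 2.91 in P3, and 7.43, 6.86, 6.84 and 6.10 in P3r2. P2 livers were all above fed and P3 livers, P3 livers were all below P2 and P3r2 livers, and fed 2 lay among the P3 values. The SD (n = 4 each) was 2.03 among fed, 0.84 among P2, 1.27 among P3 and 0.54 among P3r2 livers.

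From P2 to P3 Prdx1 fell by 4.62 log2 units (SE 0.82, adjusted p = 0.00067), and from P3 to P3r2 it rose by 3.51 (SE 0.82, adjusted p = 0.0059). Both calls held under every alternative at the threshold of 0.05, with 4.23 to 5.23 and 3.12 to 4.11 log2 units when single arrays were left out. The difference between P2 and fed (2.396 ± 0.82, SE, adjusted p = 0.066) and that between P3 and fed (-2.23 ± 0.82, SE, adjusted p = 0.073) were not called. Without fed 2 the first was 1.38 (adjusted p = 0.12) and the second was -3.24 (adjusted p = 0.00087). The first was called under 5 alternatives, such as quantile normalization (2.58, adjusted p = 0.041), and not under 17. The second was called under 8 and not under 14. It was called without P3 3 (-2.83, adjusted p = 0.023) and without the 3 narrow arrays (-3.84, adjusted p = 4.4e-06). It was not called without fed 1 (-1.96, adjusted p = 0.18), fed 3 (-1.81, 0.2) or fed 4 (-1.89, 0.19). Relative to the other rows of the same array, Prdx1 stood at percentiles 75.05, 14.95, 80.5 and 76.4 in fed 1 to 4, between 85.1 and 95.3 in P2, at 27.3, 8.59, 61.6 and 24.2 in P3, and between 73.6 and 84.9 in P3r2. No detection call was used here, so whether Prdx1 was above background in the P3 livers and in fed 2 was not tested, and no fold is given for its changes. RefSeq names 7 pseudogenes after Prdx1, and whether the probes tell these copies apart was not tested.

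Prdx2, a cytosolic peroxiredoxin abundant in red cells, was higher in every P2 liver than in any fed liver. Log2 signals were 8.96, 8.20, 9.04 and 8.96 in fed, 9.46, 9.72, 9.53 and 9.82 in P2, 8.60, 8.92, 9.38 and 9.24 in P3, and 9.49, 9.28, 9.38 and 9.44 in P3r2. P2 and P3 livers did not overlap, while P3 spread from the middle of the fed range to the middle of the re-fed range. The P2 rise of 0.84 ± 0.19 (SE, 1.80-fold, adjusted p = 0.0099) held under every alternative at 0.05, at 0.58 (adjusted p = 0.021) without the narrow arrays. The P3 fall against P2 of 0.60 (SE 0.19, adjusted p = 0.032) was lost without P2 2 (-0.57, adjusted p = 0.074), P2 4 (-0.54, 0.089), P3 1 (-0.45, 0.11) or P3 2 (-0.56, 0.073), and in the 2 groups alone (0.053). Of 10 erythroid markers 3 were measured, and with all arrays kept none was called in any comparison. With single arrays left out, at most 1 was called higher in re-fed against P3 livers. The part of red cells in the Prdx2 values was not tested.

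Prdx6, which relies on glutathione in place of thioredoxin and also has a phospholipase activity, was not called in any comparison. The log2 signal was 9.17, 7.92, 9.42 and 9.34 in fed, 9.69, 9.69, 10.03 and 9.52 in P2, 9.36, 9.22, 8.95 and 9.30 in P3, and 10.08, 9.78, 9.89 and 9.78 in P3r2. P2 and P3r2 livers all lay above fed and P3 livers. Of the 10 genes, only Prdx6 and Txnrd2 had their highest mean in re-fed livers. The change from fed to P2 was 0.77 ± 0.25 (SE, adjusted p = 0.055), that from P3 to P3r2 was 0.68 ± 0.25 (SE, adjusted p = 0.078), and that from fed to P3r2 was 0.92 ± 0.25 (SE, adjusted p = 0.065). The SD was 0.70 among fed and 0.14 among re-fed livers. Without the narrow arrays the 3 changes were 0.49, 0.59 and 0.57 and all were called (adjusted p of 0.024, 0.0025 and 0.018). Leaving out fed 3 alone also gave calls against fed, at 0.92 in P2 (adjusted p = 0.036) and 1.07 in P3r2 (0.046).

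Among the mitochondrial genes, Prdx3 and Txn2 rose from fed to P2, and Txnrd2 passed the test in none of the 6 comparisons as measured. Prdx3, the main peroxiredoxin of the mitochondrial matrix, had log2 signals of 9.04, 8.23, 9.10 and 8.93 in fed, 9.26, 9.59, 9.44 and 9.79 in P2, 8.92, 9.17, 9.26 and 9.32 in P3, and 9.51, 9.47, 9.52 and 9.50 in P3r2. All P2 and all re-fed livers were above all fed livers, and the 4 re-fed livers lay within 0.05 log2 units of each other. The P2 rise was 0.70 ± 0.17 (SE, 1.62-fold, adjusted p = 0.016). It was lost without P2 4 (0.61, adjusted p = 0.058) and in the 2 groups alone (0.071), and was 0.41 (0.043) without the narrow arrays. The re-fed rise over fed of 0.68 ± 0.17 (SE, adjusted p = 0.047) held with fed 3 left out and was lost with any of the other 7 arrays of the 2 groups left out (changes from 0.48 to 0.75, adjusted p from 0.051 to 0.13).

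Txn2, the thioredoxin that reduces Prdx3 and Prdx5 in mitochondria, had log2 signals of 10.85, 10.36, 10.90 and 10.68 in fed, 11.05, 11.26, 11.22 and 11.49 in P2, 10.85, 11.13, 11.06 and 10.83 in P3, and 11.05, 10.89, 10.95 and 10.99 in P3r2. The lowest P2 liver lay above the highest fed liver, and P3 livers overlapped both. Its P2 rise of 0.56 ± 0.13 (SE, 1.47-fold, adjusted p = 0.012) was 0.37 (adjusted p = 0.052) without the narrow arrays and was also not called in the 2 groups alone (0.057). Txnrd2, the reductase of Txn2, ranged from 6.13 (fed 2) to 6.90 (P3r2 1) over the 16 livers. Its changes against fed were -0.01 (interval -0.27 to 0.26, adjusted p = 0.98) in P2, -0.02 (-0.28 to 0.25, 0.95) in P3 and 0.24 (-0.02 to 0.51, 0.40) in P3r2. All 4 re-fed livers were above all P3 livers, at 0.26 ± 0.12 (SE, adjusted p = 0.19). Without the narrow arrays the changes of Txnrd2 against fed were -0.12 in P2, -0.12 in P3 and 0.12 in P3r2 (adjusted p from 0.54 to 0.73).

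Prdx5, a peroxiredoxin found in mitochondria, peroxisomes and the cytosol, was high in both fasted groups. By liver it measured 9.54, 8.25, 9.61 and 9.06 in fed, 9.999, 10.32, 10.07 and 10.50 in P2, 9.72, 9.75, 10.24 and 9.78 in P3, and 9.22, 9.37, 9.24 and 9.44 in P3r2. Every liver of both fasted groups lay above every fed and every re-fed liver. The P2 rise was 1.11 ± 0.24 (SE, 2.15-fold, adjusted p = 0.0081) and held under every alternative at 0.05, at 0.72 without the narrow arrays. The P3 rise over fed was 0.76 ± 0.24 (SE, 1.69-fold, adjusted p = 0.034). It was not called without fed 2 (0.47, adjusted p = 0.071), fed 4 (0.74, 0.073), P3 3 (0.63, 0.10) or P3 4 (0.79, 0.057), nor without the narrow arrays (0.34, 0.13), with array weights (0.43, 0.13) or in the 2 groups alone (0.13). Re-fed livers were lower than P2 by 0.90 (SE 0.24, adjusted p = 0.019), a call lost without P2 4 (-0.81, 0.064), P3r2 1 (-0.87, 0.054) or P3r2 3 (-0.88, 0.055). They did not overlap P3 either, at -0.56 ± 0.24 (SE, adjusted p = 0.13), a difference that was called without the narrow arrays.

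Txnrd1, the cytosolic thioredoxin reductase, had its lowest mean in P2 and its highest in P3, the reverse of Prdx1 and Prdx4. Its log2 signal was 7.53, 7.36, 7.79 and 7.74 in fed, 7.10, 7.22, 7.57 and 6.81 in P2, 7.90, 8.03, 8.13 and 8.22 in P3, and 7.77, 7.95, 7.74 and 7.72 in P3r2. P3 livers were above all fed and all P2 livers, and overlapped the re-fed livers in part. From P2 to P3 it rose by 0.90 ± 0.15 (SE, 1.86-fold, adjusted p = 0.00033), a call that held under every alternative at 0.05.

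The other differences of Txnrd1 were less firm. In P3 it stood 0.46 ± 0.15 (SE, adjusted p = 0.034) above fed, and the call was lost without fed 1 (0.44, adjusted p = 0.083), fed 2 (0.38, 0.10), P3 2 (0.48, 0.054), P3 3 (0.45, 0.074) or P3 4 (0.42, 0.10), without the narrow arrays (0.36, 0.089) and after quantile normalization (0.36, 0.06). Re-fed livers were above P2 by 0.62 ± 0.15 (SE, adjusted p = 0.01), which was 0.27 (0.18) after quantile normalization, 0.40 (0.21) with the spread of the arrays as a covariate and 0.22 (0.22) after removal of the length trend. The change from fed to P2 was -0.43 ± 0.15 (SE, adjusted p = 0.063), called without fed 2 (-0.51, 0.039) or P2 3 (-0.56, 0.015).

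Glrx, which frees protein cysteines from bound glutathione, was higher in every P2 liver than in any other liver of the study. Its log2 signals were 8.15, 7.45, 8.44 and 8.65 in fed, 9.29, 9.14, 9.21 and 9.43 in P2, 8.93, 8.63, 8.66 and 8.83 in P3, and 8.73, 8.47, 8.65 and 9.08 in P3r2. P3 and re-fed livers overlapped fully, and both overlapped the highest fed liver. The P2 rise of 1.09 ± 0.20 (SE, 2.14-fold, adjusted p = 0.0037) held under every alternative at 0.05, at 0.80 without the narrow arrays. In P3 the difference from fed was 0.59 ± 0.20 (SE, adjusted p = 0.056), called without fed 3 (0.68, 0.047) or fed 4 (0.75, 0.016). RefSeq names 9 pseudogenes after Glrx, 3 after Prdx6 and 1 each after Prdx3 and Txn2.

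Within groups the genes varied together in the fed livers. Fed 2 was the lowest fed liver for 10 of the 10 genes, at -3.03 log2 units from the fed mean for Prdx1 and from -1.05 to -0.25 for the other 9, and it was the lowest fed liver for 64.1% of the 9443 rows at or above the median signal. Fed 3 was the highest for 8 of the 10 genes and for 24.9% of these rows. P2 4 was the highest P2 liver for 7 of the 10, where 21.2% of the brighter rows had it highest. P2 4 was the lowest P2 liver for Prdx6 and Txnrd1, and for 48.8% of the brighter rows.

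**Figure D3:**
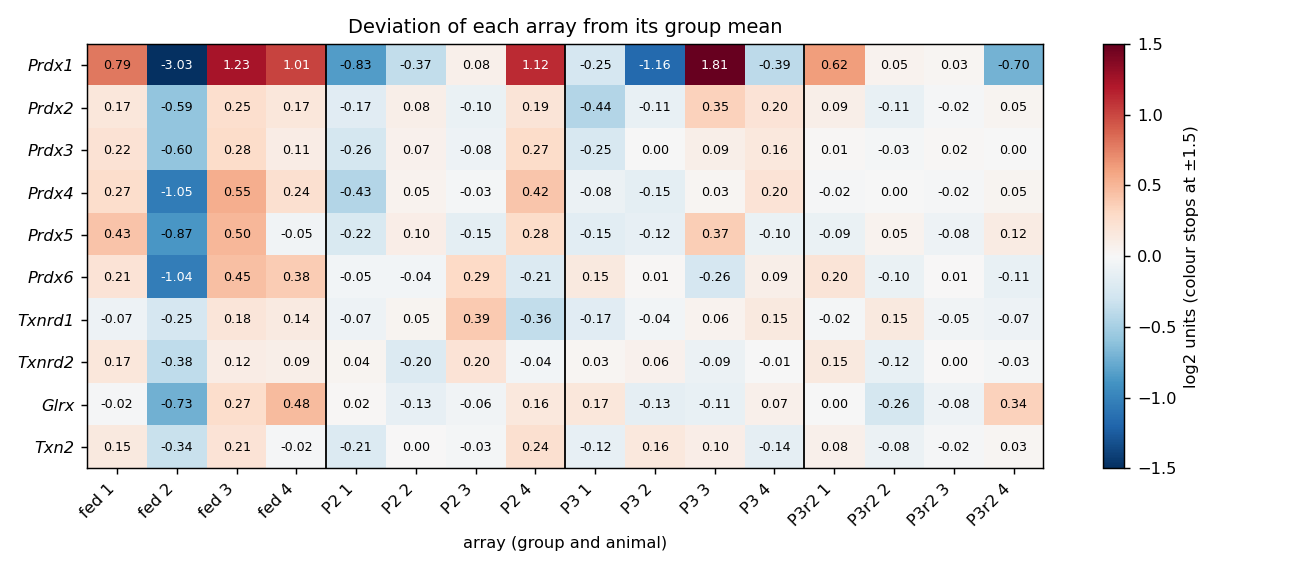
Deviation in log2 units of each array (x axis) from the mean of its group for each gene (y axis), with blue below and red above the mean and colours that stop at 1.5 log2 units. The column of fed 2 is blue for all 10 genes, and the row of Prdx1 has the strongest colours in both directions.

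Gene length moved with the changes on these arrays, so each gene was set beside rows of like length. The 8226 brighter rows with a known gene span were cut into 5 length groups. For P2 against fed, the median change went from 0.20 in the shortest genes to -0.35 in the longest, with 19.6% and 2.67% of rows called higher. For P3 against P2 it went from -0.10 to 0.26. Of the 10 genes, 8 span 3.75 to 17.4 kb and lie in the 3 shortest groups, while Txnrd2 spans 48.2 kb and Txnrd1 spans 84.9 kb.

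The called P2 rises are set beside the medians of rows of like length. Genes picked as called higher would lie above such small medians in any case, so only the sizes are given. Measured from the median of its length group, the P2 change was 1.22 for Prdx4, 1.03 for Glrx, 0.90 for Prdx5, 0.64 for Prdx2, 0.63 for Prdx3 and 0.49 for Txn2. The P2 change of Txnrd1, -0.43, lay -0.08 from that median. For P3 against P2, Txnrd1 stood 0.63 above the median of its group, Prdx4 stood at -2.71 and Prdx1 at -4.65. With the length trend removed from every array, 9 of the 10 genes were called between P2 and P3, 8 lower and 1 higher. In that fit, run on the 8226 brighter rows of known length, 4092 rows were called, 2058 higher and 2034 lower. The lower ones then included Txnrd2 (-0.33 ± 0.12, SE, adjusted p = 0.028), which had -0.01 as measured, and the higher one was Txnrd1 (0.56 ± 0.14, SE, adjusted p = 0.0031).

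**Figure D4:**
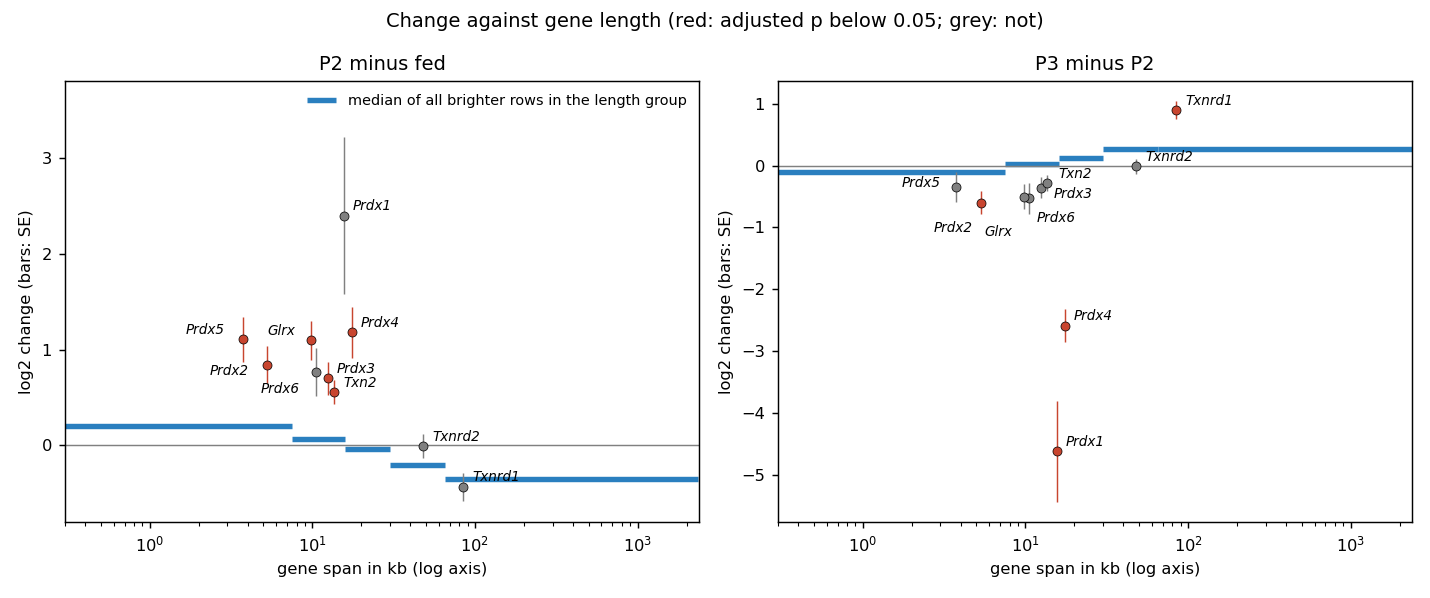
Log2 change with its SE (y axis) against gene span in kb on a log axis for the 10 genes, with blue bars at the median change of all brighter rows in each of 5 length groups. In P2 minus fed the bars fall from 0.20 to -0.35 and Txnrd1 lies on them, while in P3 minus P2 Prdx1 and Prdx4 lie far below theirs.

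Genes with the most similar pattern were looked for beside the 4 genes whose group means span at least 1 log2 unit. Likeness was the root mean square distance over the 16 arrays, with each gene centred on its own mean. For Prdx4 the nearest were Stk16 (0.29), Tmem160 (0.30) and Fabp7 (0.36), against 1.00 for the distance of Prdx4 from its own mean. Stk16 had group means of 7.97 (fed), 9.20 (P2), 7.001 (P3) and 8.55 (P3r2). For Prdx5 the nearest were C19h19orf53 (0.16), Atp6v0e1 (0.19) and Ccndbp1 (0.19), against 0.54. For Glrx they were Sar1b (0.15), Txndc17 (0.17) and Etfa (0.20), against 0.47. For Prdx1 the nearest were Sec11c (1.15), Cyp17a1 (1.18) and Serpina7 (1.205), against 2.05, so no gene compared was close by this distance. The values were not scaled, so a gene with the same pattern but smaller changes would also lie far from Prdx1.

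Among 23 partner genes of the thioredoxin and glutaredoxin systems, 13 had a row. In P3 against P2, 4 of the 13 were called higher and 5 lower (3 and 5 without the narrow arrays), beside 13.5% and 8.53% of all rows. The median was -0.35 against -0.03 over all rows. Txn1, the cytosolic thioredoxin that Txnrd1 reduces, had its highest mean in P2 and its lowest in P3, as Prdx1 and Prdx4 did. Its log2 signal was 10.81, 9.96, 10.92 and 10.59 in fed, 11.24, 11.32, 11.47 and 11.74 in P2, 9.86, 10.34, 10.65 and 10.26 in P3, and 10.93, 11.03, 10.89 and 11.18 in P3r2. P2 livers lay above all others, and P3r2 livers above all P3 livers. Txn1 rose by 0.87 ± 0.20 (SE, adjusted p = 0.011) from fed to P2 and fell by 1.17 (SE 0.20, adjusted p = 0.00051) from P2 to P3. It rose by 0.73 ± 0.20 (SE, adjusted p = 0.016) with re-feeding, a call lost without P3 1 or P3r2 4 and after quantile normalization (adjusted p up to 0.084).

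Srxn1, Txnip and Map3k5 rose in P3 and fell again with re-feeding. Srxn1, sulfiredoxin, which rescues over-oxidised peroxiredoxins, had 5.82 to 6.12 in fed, 5.57 to 6.24 in P2, 6.72 to 7.30 in P3 and 5.89 to 6.03 in P3r2. P3 livers were above all others. It rose by 1.01 ± 0.14 (SE, adjusted p = 9.8e-05) from fed to P3 and by 1.05 (SE 0.14, adjusted p = 8.2e-05) from P2 to P3, and fell by 0.97 (SE 0.14, adjusted p = 0.00015) with re-feeding. Txnip, the protein that binds and blocks thioredoxin, was 0.88 ± 0.19 (SE, adjusted p = 0.0033) higher in P3 than in fed and fell by 1.34 (adjusted p = 0.00011) with re-feeding. Map3k5, the stress kinase held inactive by reduced thioredoxin, was 3.25 ± 0.29 (SE, adjusted p = 1.1e-06) higher in P3 than in fed and fell by 2.39 (adjusted p = 2.4e-05). Msrb2, a mitochondrial methionine sulfoxide reductase, went the other way, with -1.32 ± 0.14 (SE, adjusted p = 7.3e-06) in P3 against fed and 1.91 (adjusted p = 2.0e-07) after re-feeding. These calls of Srxn1, Txnip, Map3k5 and Msrb2 held under every alternative at 0.05.

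In P2 against fed, 5 of the 13 partners were called higher and 1 lower, beside 6.13% and 6.58% of all rows. Without the narrow arrays 3 were higher and 1 lower. Txndc17, a small thioredoxin-like protein, rose by 1.03 ± 0.15 (SE, adjusted p = 0.00088), and Sesn3, a sestrin, fell by 0.92 (SE 0.17, adjusted p = 0.0035), both under every alternative at 0.05. Re-feeding gave 5 higher and 3 lower calls against P3, beside 10.5% and 7.93% of all rows (2 to 6 higher with single arrays left out, and 8 higher and 3 lower without the narrow arrays).

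**Figure D5:**
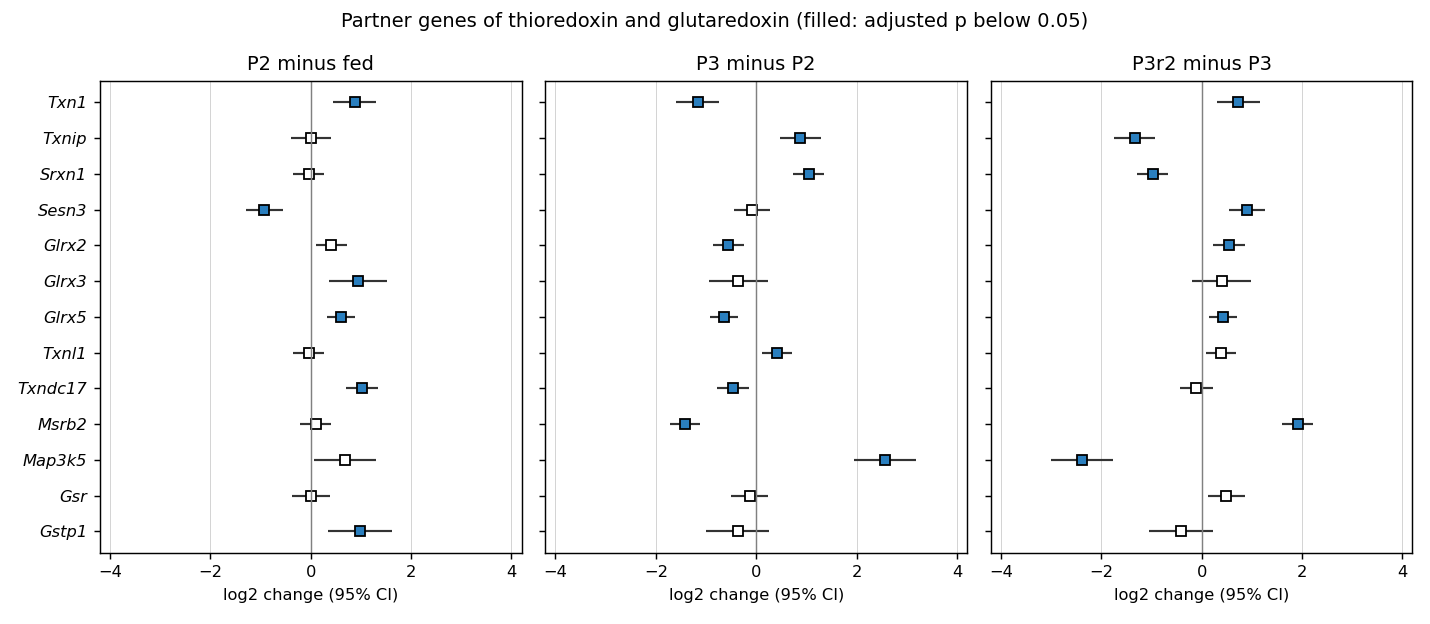
Log2 change with 95% confidence interval (x axis) of the 13 measured partner genes (y axis) in 3 comparisons, filled where limma's adjusted p was below 0.05. Srxn1, Txnip and Map3k5 lie to the right in P3 minus P2 and to the left in P3r2 minus P3, while Txn1 and Msrb2 do the reverse.

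NADPH, which feeds both the thioredoxin and the glutathione reductases, is made by several enzymes, of which 5 of 11 had a row. In P3 against fed 3 of the 5 were called lower and 1 higher, beside 8.06% and 11.3% of all rows. In re-fed against P3 livers 4 were called higher and 1 lower, beside 10.5% and 7.93% of all rows. The counts were the same without the narrow arrays. The median changes were -1.43 and 2.77. Nnt, the mitochondrial transhydrogenase, fell by 2.71 (SE 0.39, adjusted p = 0.0001) from fed to P3 and rose by 2.85 (adjusted p = 6.9e-05) with re-feeding. Idh1, cytosolic isocitrate dehydrogenase, fell by 2.68 (SE 0.32, adjusted p = 1.7e-05) and rose by 2.77 (adjusted p = 1.4e-05). Me1, malic enzyme, was lower in P2 by 1.98 (SE 0.38, adjusted p = 0.0045) and in re-fed livers stood 2.01 ± 0.38 (SE, adjusted p = 0.01) above fed. In P3 Me1 was lower than fed by 1.43 (adjusted p = 0.014), a call lost without P3 1 and in the 2 groups alone (adjusted p up to 0.062). Mthfd1, a folate enzyme, was the member that rose in P3, by 1.14 ± 0.18 (SE, adjusted p = 0.00024).

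Several genes for oxidative folding in the endoplasmic reticulum, the compartment of Prdx4, fell in P3 and rose with re-feeding. Of 10 measured of 13, 5 were called lower and 1 higher in P3 against fed, 5 lower and 0 higher against P2, and 5 higher and 0 lower in re-fed against P3 livers. Without the narrow arrays these counts did not change. The shares of all rows called lower and higher were 8.06% and 11.3% in P3 against fed and 8.53% and 13.5% against P2. In re-fed against P3 livers 10.5% of all rows were called higher and 7.93% lower. The median over the 10 was -0.50 in P3 against fed and 0.79 after re-feeding. Pdia6, a protein disulfide isomerase, fell by 2.04 (SE 0.14, adjusted p = 8.1e-08) from fed to P3 and rose by 2.36 (adjusted p = 1.4e-08) with re-feeding. For Pdia4 these values were -2.002 (SE 0.22, adjusted p = 9.3e-06) and 2.10 (adjusted p = 6.1e-06), and for P4hb -1.73 (SE 0.11, adjusted p = 2.6e-08) and 2.12 (adjusted p = 2.2e-09). The gene that rose in P3 was Txndc12, a thioredoxin-like protein of the same compartment, at 1.28 ± 0.27 (SE, adjusted p = 0.003). In P2 against fed only Txndc12 was called (0.89, adjusted p = 0.045), so the P2 rise of Prdx4 had no called counterpart among the isomerases. That call was lost without the narrow arrays, where 0 genes of the list were called higher and 3 lower, and without fed 1, 2 or 4 or P2 1, 2 or 4 (0.49 to 1.06 over all alternatives, adjusted p up to 0.20).

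Other targets of NRF2, the factor that acts through the antioxidant response element, changed in both directions in P3. Of 15 measured of 21, 3 were called higher and 4 lower against fed (3 and 6 without the narrow arrays), beside 11.3% and 8.06% of all rows. The median was -0.16, and 3 of the 15, Srxn1, Gsr and Me1, also stand in the lists above. Hmox1, heme oxygenase, rose by 2.62 ± 0.41 (SE, adjusted p = 0.0002) and Abcc3, an export pump, by 2.15 ± 0.34 (SE, adjusted p = 0.00022), while Ephx1, an epoxide hydrolase, fell by 2.13 (SE 0.16, adjusted p = 2.0e-07) and Tkt, transketolase, by 1.48 (SE 0.16, adjusted p = 6.0e-06). In P2 against fed 0 of the 15 were called higher and 3 lower (0 and 2 without the narrow arrays), beside 6.13% and 6.58% of all rows.

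Thioredoxin reductases need the machinery that inserts selenocysteine. Of a list of 7 genes for selenoprotein synthesis 4 had a row, Eefsec, Secisbp2, Pstk and Selenop. Selenop is a secreted selenium carrier and no part of that machinery, so counts and the median over the list cover more than the machinery. From P2 to P3, 2 were called higher and 1 lower, beside 13.5% and 8.53% of all rows, with a median of 0.65 over the list. Eefsec, the elongation factor for selenocysteine, rose by 1.09 ± 0.17 (SE, adjusted p = 0.0002) and Secisbp2, which binds the selenocysteine signal in the mRNA, by 1.24 ± 0.19 (SE, adjusted p = 0.0002). The gene called lower was Selenop, which fell by 0.99 (SE 0.12, adjusted p = 3.7e-05), so no measured gene of the insertion machinery was called lower. All 3 calls held under every alternative at 0.05, the narrow arrays left out included. In this comparison Txnrd1 rose and Txnrd2 had -0.01.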

How the data were processed

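Per the submitters' processing notes, GCOS 1.4 and Affymetrix Expression Console 1.1 were used by the authors, who deposited 1 value per transcript cluster and array. How probes were summarised and background corrected is left unstated in the sources used here. The deposited values were read as log2 signals, a base inferred from their range, 0.84 to 13.6. They were used with no further scaling. Signals can be compressed for very dim and very bright rows. Of 19418 rows, 533 with identifiers below the annotated range, all without annotation, were left out. The other 18885 were tested: 13327 carry 1 gene symbol, 620 several and 4938 none. Symbols come from the array annotation and gene spans from RefSeq (assembly GRCr8), known for 99.3% of the 13215 genes. The files name no genome build.

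The test was limma 3.58.1 under R 4.3.3, with 1 mean per group over all 16 arrays, 6 contrasts, eBayes, two-sided tests, Benjamini-Hochberg adjustment over all tested rows and a threshold of 0.05. Each array is 1 rat. Precision is limited by the number of arrays. The steps were tested on simulated data. The members and lists were chosen with earlier results of these data known. Named are all 10 members, up to 4 called genes with the largest change per list and comparison, and the 3 nearest genes by pattern for members whose means span at least 1 log2 unit. Some of these genes' values in other comparisons are also given. Alternatives were quantile normalization, median centring, intensity trend, robust option, array weights, the 2 groups alone, brighter rows only, a threshold of 0.01, the mean of a gene's rows, the replicate number as a block, the spread as a covariate, the length trend taken out, unannotated rows included, the 3 narrow arrays left out and each array left out in turn. Brighter rows with a known length were added after seeing the data. Samples with the same replicate number did not deviate together: of 24 such pairs of arrays, 6 correlated above 0.1 (range -0.40 to 0.26, other pairs -0.31 to 0.31). Figures were drawn with matplotlib 3.10.9.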

Additional observations from a re-analysis of the deposited data

Results flagged for a closer look

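In 5 of the 40 groups of 4 livers (10 genes in 4 groups), 1 liver stood far from the others: its gap to the nearest one, as a share of the whole range of the group, was above the 95% critical value of Dixon's test. Chance gives such a gap in about 1 of 20 groups. In 4 of the 5 cases the liver was fed 2, which was low. Prdx1 had 2.49 there, with 6.32 to 6.76 in the other fed livers. Prdx2 had 8.20 against 8.96 to 9.04, Prdx6 had 7.92 against 9.17 to 9.42, and Txnrd2 had 6.13 against 6.60 to 6.68. The remaining case is Prdx5 in P3 3, at 10.2, above 9.72 to 9.78 in the other P3 livers. Fed 2 and P3 3 are both among the 3 arrays of narrow spread.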

How the results depend on the processing

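Of 60 comparisons of single genes, 19 were called, 9 of them under every one of the alternatives at the threshold of 0.05, and no called value changed sign. Of the others, 21 were called under at least 1 alternative, and 44 values not called before or after changed sign (largest size 0.50). Of 87 named values of list genes, 58 were called under every alternative at 0.05. P2 against fed: of the 10 genes 6 were called, 3 in the 2 groups alone, 3 at 0.01 and 5 to 7 with single arrays left out. Of all rows 2400 were called, 1568 in the 2 groups alone, 819 at 0.01 and 1200 to 2574 with single arrays left out (1548 without fed 1, 1277 without fed 4, 1521 without P2 2, 1200 without P2 4). P3 against fed: 3 genes were called, 5 after quantile normalization, 5 in brighter rows, 5 in brighter rows with a known length, 5 with the replicate block, 1 at 0.01 and 1 to 4 with single arrays left out (1 without P3 4). Rows numbered 3648, and 3004 to 3616 with single arrays left out. P3 against P2: 4 genes, 9 with the length trend taken out and 3 to 4 with single arrays left out; 4154 rows, 2618 at 0.01 and 3332 to 4609 with single arrays left out. P3r2 against P3: 2 genes, 4 after quantile normalization, 4 with array weights, 4 in the 2 groups alone, 4 with the length trend taken out, 6 without the narrow arrays and 2 with any single array left out; 3473 rows, 2294 at 0.01 and 2874 to 3377 with single arrays left out. P3r2 against fed: 1 gene, 3 with array weights, 2 in brighter rows, with a known length or not, 2 with the mean of a gene's rows, 2 without the narrow arrays, 2 with the length trend taken out, 0 with the intensity trend, in the 2 groups alone, at 0.01, with the replicate block or with the spread as a covariate, and 0 to 2 with single arrays left out. Rows numbered 514, 1467 with array weights, 169 at 0.01 and 242 to 432 with single arrays left out (318 without fed 2, and 249, 269, 242 and 302 without P3r2 1 to 4). P3r2 against P2: 3 genes, 0 at 0.01, 1 with the spread as a covariate and 1 to 3 with single arrays left out (1 without P2 4, P3r2 1 or P3r2 3); 2954 rows, 4817 with array weights, 1180 at 0.01, 789 with the spread as a covariate and 1637 to 3266 with single arrays left out (1660 without P2 4, and 1719, 1637 and 1643 without P3r2 1 to 3). The split of higher to lower rows moved as well: P2 against fed from 1158 and 1242 to 845 and 1478 without the narrow arrays, P3 against P2 from 2543 and 1611 to 2058 and 2034 with the length trend taken out, P3r2 against P3 from 1975 and 1498 to 1775 and 2226 with the spread as a covariate, P3r2 against fed from 417 and 97 to 209 and 183 after quantile normalization, 269 and 263 with the spread as a covariate and 364 and 217 with the length trend taken out, and P3r2 against P2 from 2131 and 823 to 1502 and 1229, 427 and 362, and 1507 and 1383 under the same settings. A stricter threshold lowers counts by construction; the cause was not tested for the other moves. With the replicate block, Prdx3 in P3r2 against fed had an adjusted p of 0.063, and Prdx1 in P3 against fed (0.048) and Glrx in P3 against fed (0.019), P3 against P2 (0.038) and P3r2 against P2 (0.044) were called. The labels do not state whether animals with the same replicate number were paired or processed together. The correlations of such arrays given above cannot exclude it.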
